A study of Mus musculus with 6 samples.

Results

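The proteasome genes measured here are the 46 genes whose platform symbol begins with *Psm*, a letter from a to g and a digit, out of 8251 genes that carry a symbol of their own on the array. They are read by 58 probe sets, and each gene was taken at the probe set with the highest mean over all 6 arrays. The rule takes in 14 core subunits (7 alpha and 7 beta), 20 cap genes (6 ATPases and 14 others, among them chaperones of cap assembly), 4 genes of the immunoproteasome, 2 further activators, 4 chaperones of core assembly and 2 genes that only carry a subunit's name (*Psmc3ip* and *Psme3ip1*). *Psme2* is a partner of *Psme1*, but its probe sets are annotated to both *Psme2* and *Psme2b*, so that it did not enter by the rule. *Psma8*, *Psmb11* and *Psmf1* had no row with a single symbol and were not analysed here.

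Livers came from male mice of 2 to 3 months on chow that had not been fasted. Liver Insulin Receptor Knockout (LIRKO) mice were IR flox/flox with the albumin:CRE transgene, whose promoter is active in hepatocytes, and their Flox littermates were IR flox/flox without Cre, all on a mixed genetic background. RNA of 2 to 3 mice was pooled for each array, so the spread between the 3 LIRKO and 3 Flox arrays is a spread between pools. Every value below is an RMA value of an Affymetrix MG-U74A-v2 probe set on the log2 scale, where 1 unit is a doubling of signal, and differences are LIRKO minus Flox.

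The proteasome degrades proteins that carry ubiquitin chains. Its barrel-shaped core is built of outer alpha rings, which gate the entrance, and inner beta rings, which hold the active sites. The cap binds the ubiquitin chain, removes it and unfolds the substrate with a ring of ATPases. In cells exposed to interferon, and in many immune cells at rest, *Psmb8*, *Psmb9* and *Psmb10* take the places of the constitutive catalytic subunits *Psmb5*, *Psmb6* and *Psmb7*, which alters the peptides that are handed to MHC class I. Liver carries both forms. Transcription of the subunit genes is coordinated by *Nfe2l1*, which acts through antioxidant response elements when proteasome activity is short.

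The promoters of 3 catalytic subunits are printed because the results below turn on these genes. *Psmb9* was an immunoproteasome gene with lower signal on every LIRKO array and takes the place of *Psmb6*, and *Psmb5* is the counterpart of *Psmb8*. The windows hold 250 bases before and 50 after the RefSeq start site in GRCm38.p6, 5′ to 3′ on the gene's strand. *Psmb9* lies at chr17:34187281-34187580 (minus strand), and 225 bases lie between its start site and that of *Tap1*, the peptide transporter gene that is read in the opposite direction. Capitals in the *Psmb9* window mark the bases between both start sites, all of which also fall into the *Tap1* window.
Psmb9: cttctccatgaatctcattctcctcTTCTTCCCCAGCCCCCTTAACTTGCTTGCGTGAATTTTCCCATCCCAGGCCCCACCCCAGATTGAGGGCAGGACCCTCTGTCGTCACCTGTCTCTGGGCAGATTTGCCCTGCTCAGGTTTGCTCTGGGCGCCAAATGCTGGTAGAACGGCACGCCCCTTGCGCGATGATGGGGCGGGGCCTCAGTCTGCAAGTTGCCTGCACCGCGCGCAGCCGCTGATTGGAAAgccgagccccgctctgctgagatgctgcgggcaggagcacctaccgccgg
*Psmb5* lies at chr14:54617946-54618245 (minus strand) and *Psmb6* at chr11:70525107-70525406 (plus strand). Their capitals mark the letters TGACNNNGC of an antioxidant response element (ARE), which began 47 and 9 bases before the start sites.
Psmb5: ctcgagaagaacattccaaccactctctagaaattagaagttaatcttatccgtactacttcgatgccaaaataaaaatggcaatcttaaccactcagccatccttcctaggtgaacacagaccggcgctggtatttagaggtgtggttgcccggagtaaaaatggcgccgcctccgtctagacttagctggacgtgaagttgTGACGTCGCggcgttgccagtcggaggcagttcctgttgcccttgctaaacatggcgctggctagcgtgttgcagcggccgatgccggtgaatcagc
Psmb6: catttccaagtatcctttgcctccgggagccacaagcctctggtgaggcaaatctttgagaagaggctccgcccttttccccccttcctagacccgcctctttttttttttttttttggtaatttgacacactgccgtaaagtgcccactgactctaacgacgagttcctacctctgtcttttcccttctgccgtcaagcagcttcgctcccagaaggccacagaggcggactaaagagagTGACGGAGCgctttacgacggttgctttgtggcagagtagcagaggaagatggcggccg
Over the members, 39 genes had 42 promoters in the RefSeq table. The ARE letters were found on either strand in 14.3% of these promoters, against 12.4% of all 32851 promoters, and in 6 genes (*Psmb5*, *Psmb6*, *Psmc6*, *Psmd9*, *Psmd12* and *Psme4*). The letters of an interferon-stimulated response element (GAAA, any 2 bases, GAAA) were in 11.9%, against 3.44% of all (*Psmb3*, *Psmd4*, *Psmd9*, *Psme1* and *Psmg4*). These motifs share letters and can overlap, but no matches overlapped in the members. A match is a description of letters, not of a bound site.

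The deposited arrays were not alike within the LIRKO group, and this bears on every result below. When probe sets were split into 10 equal groups by their Flox mean, the brightest group read -1.09 on LIRKO 2 and -0.89 on LIRKO 3 relative to Flox in median, whereas the dimmest read 0.23 and 0.15. LIRKO 1 lay within 0.03 of Flox in each of the 10 groups. The members were mostly bright, with 39 of 46 in the 3 brightest groups (9, 15 and 15 genes). Therefore, LIRKO 1 is also given alone, and 21 of the 46 members had the other sign on it than in the mean of the 3 LIRKO arrays. Probe set 102146_at of *Insr*, the targeted gene, read 5.37, 5.99 and 6.06 on LIRKO 1, 2 and 3, against 5.45, 5.22 and 5.38 on Flox 1, 2 and 3, so it was not lower in LIRKO (adjusted p = 0.245), and where it lies relative to the deleted part is not known here, so it does not check the labels.

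**Figure D1:**
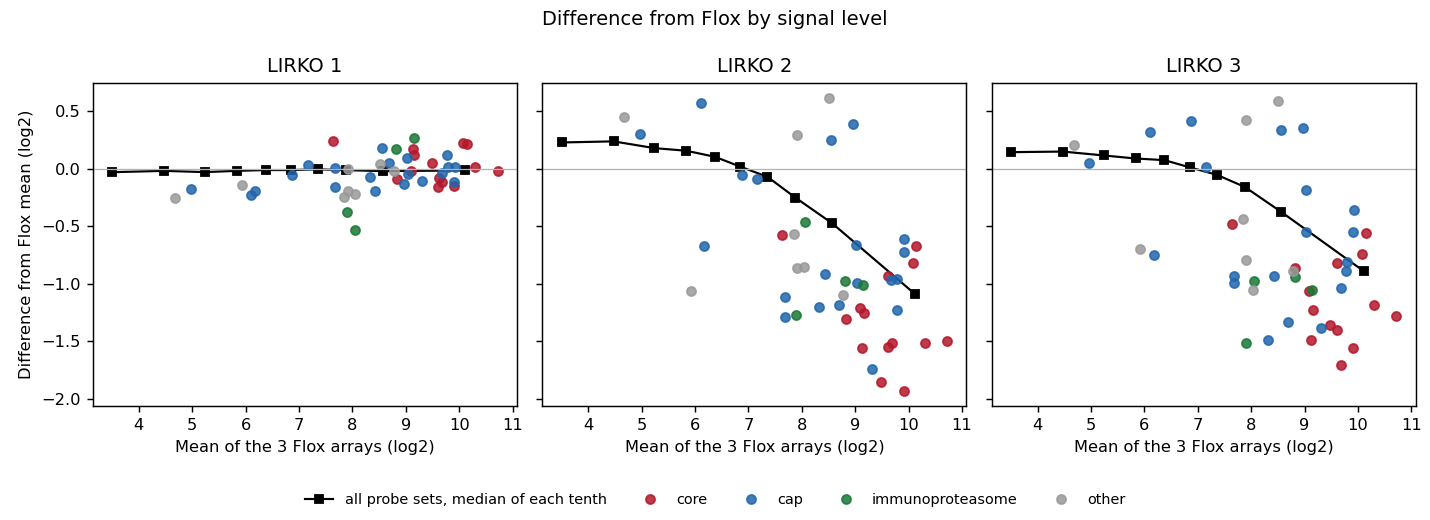
LIRKO value minus Flox mean (log2, vertical) against the Flox mean (log2, horizontal), with a panel for each LIRKO array. Coloured points are the 46 members (core, cap, immunoproteasome, other), and black squares joined by a line are medians of all probe sets in 10 equal groups by level. On LIRKO 1 both lie near 0, whereas on LIRKO 2 and LIRKO 3 the line falls, with 32 and 30 of the members at or below the median of their level group.

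No member differed between LIRKO and Flox livers at an adjusted p under 0.05, and the lowest adjusted p among them was 0.237. Over all 12422 probe sets, 0.129% passed. The median difference of the 46 members was -0.63, against 0.011 for all probe sets, and 38 members were below 0 and 8 above. At an unadjusted p under 0.05, 21 members were lower (45.7%) and 0 were higher, against 13.5% of all probe sets lower and 7.43% higher. The shares of all probe sets, here and below, count every probe set, whereas members are genes at their brightest probe set. Of all 8251 genes read in that way, 1288 were lower and 588 higher at an unadjusted p under 0.05. In the 3 brightest groups of probe sets, 30.6% were lower by this measure, against 48.7% of the 39 members there. The methods' t-test gave 3 members an unadjusted p under 0.05, against 5.86% of all probe sets. In these whole livers, fewer cells of a type and less RNA per cell cannot be told apart.

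All 3 LIRKO arrays lay below all 3 Flox arrays for 9 members (19.6%), against 14.9% of all probe sets and 27.4% of those in the 3 brightest groups. The bright members thus showed this separation at a share of 20.5%, near or below the background. These 9 were *Psmb1*, *Psmb6*, *Psmb8*, *Psmb9*, *Psmd8*, *Psmd10*, *Psme3*, *Psmg1* and *Psme3ip1*. *Psmd9* was the 1 member with all LIRKO arrays above all Flox arrays, against 9.84% of all probe sets, and is named after its values were seen.

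LIRKO 1 alone showed a different picture. The median difference of the members on it was -0.041, against -0.96 on LIRKO 2 and -0.88 on LIRKO 3. LIRKO 1 lay below all Flox arrays for 13 members (28.3%), above them for 11 and between them for 22. Over all probe sets, 30.9% lay below and 24.7% above, and 33.3% lay below in the 3 brightest groups, so that the members on LIRKO 1 were near the background in this respect. With LIRKO 1 as the only LIRKO array, 0 members and 0.725% of all probe sets passed limma, with the spread taken from the Flox arrays. Without LIRKO 1, 36 members passed as lower (78.3%) and 5 as higher, against 26.7% and 22.4% of all probe sets. In the 3 brightest groups, 57.8% of probe sets were lower without LIRKO 1, against 87.2% of the members there.

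Because the shift on LIRKO 2 and LIRKO 3 grew with signal, the members were set beside probe sets of like level. In level groups 8, 9 and 10, their medians were -0.66, -0.67 and -0.68, against -0.13, -0.28 and -0.65 for all probe sets. The members of groups 8 and 9 were therefore lower than a typical probe set of their level, and those of the brightest group were close to it. After cyclic loess normalization between arrays, which evens out such a trend, the members' medians in these groups were -0.55, -0.43 and -0.22, against -0.012, -0.024 and -0.090. Then 33 members were below 0 and 0 passed, against 0.322% of all probe sets that passed. Of the 46 members, 17 were smaller in size by over 1.5 times after cyclic loess, 4 were larger by over 1.5 times and 7 changed sign. The median after cyclic loess was -0.46 for the core, -0.14 for the cap and -0.44 for the immunoproteasome. How the level shift arose, and what part it has in these medians, was not tested.

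**Figure D2:**
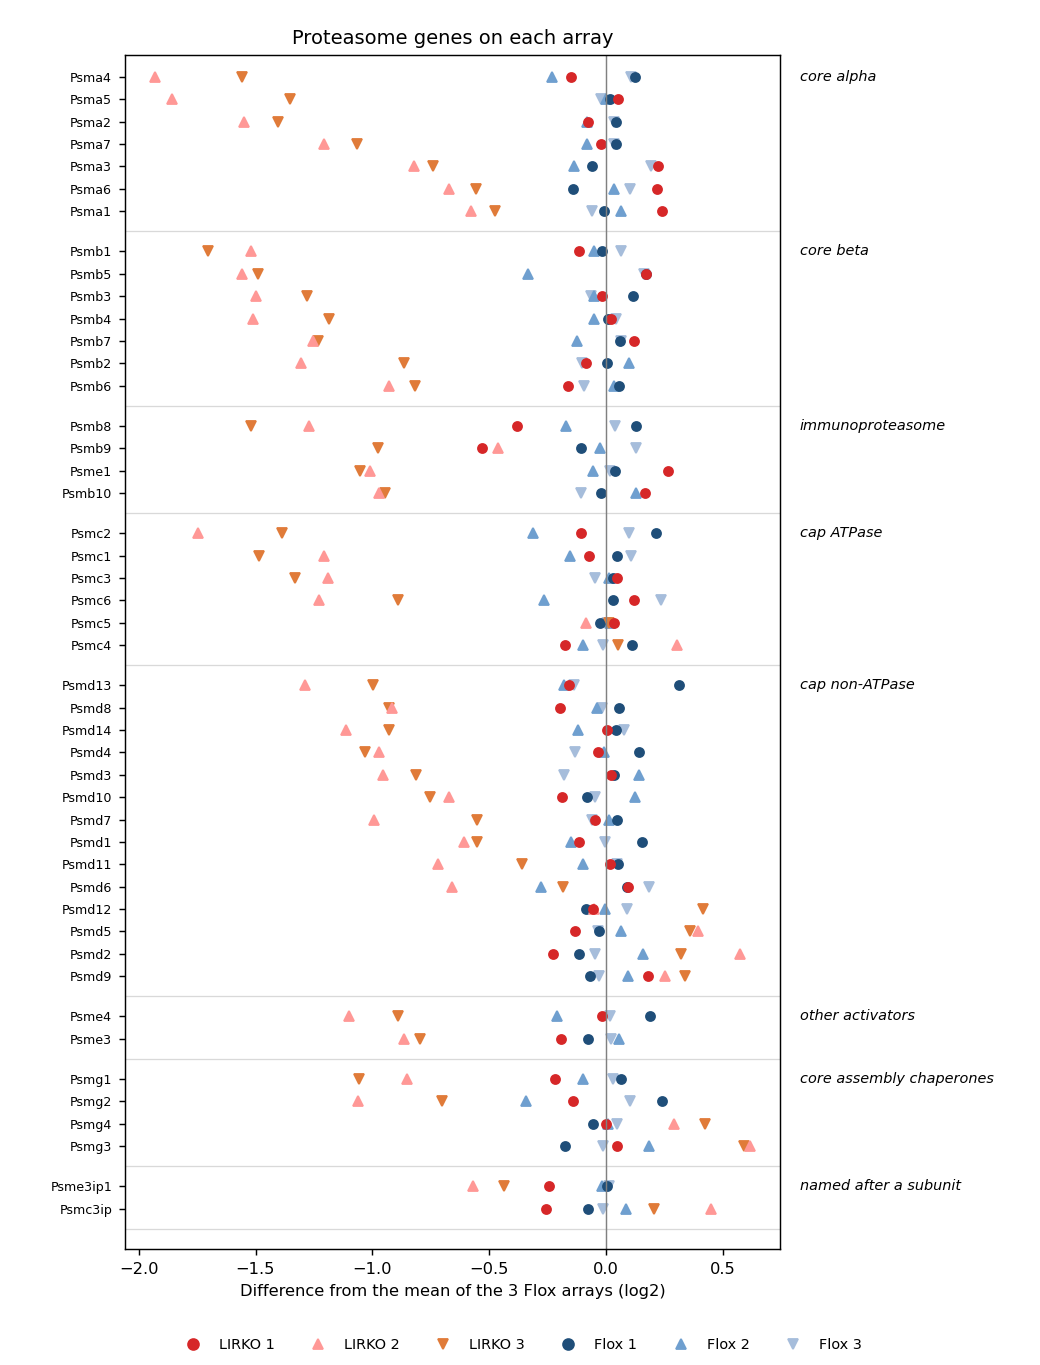
Value of a member minus its Flox mean (log2, horizontal) on each of the 6 arrays for the 46 members, grouped by role and ordered by mean difference. Symbols give the array, LIRKO in reds and Flox in blues. LIRKO 2 and LIRKO 3 stand to the left for most members, and LIRKO 1 stands near the Flox arrays, farthest to the left at *Psmb9* (-0.53) and *Psmb8* (-0.38).

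The core subunits were lower on LIRKO 2 and LIRKO 3 and near Flox on LIRKO 1. All 14 were below 0, with a median of -0.84 and a range of -1.21 to -0.27, although *Psma6* turned to 0.077 after quantile normalization, and *Psma6* and *Psma3* to 0.24 and 0.11 after cyclic loess. LIRKO 1 had a median of 0.0024, LIRKO 2 of -1.40 and LIRKO 3 of -1.21. At an unadjusted p under 0.05, 8 of 14 were lower, against 13.5% of all probe sets and 30.6% of those in the 3 brightest groups, in which all core genes lie. In the alpha ring, *Psma4* read 9.76, 7.97 and 8.35 on the LIRKO arrays, against 10.03, 9.67 and 10.01 on the Flox arrays, a difference of -1.21 (SE 0.436, adjusted p = 0.237), and LIRKO 1 lay within the Flox range. *Psma2* read 9.53, 8.06 and 8.21 on the LIRKO arrays, against 9.66, 9.53 and 9.65 on the Flox arrays, a difference of -1.01 (SE 0.374, adjusted p = 0.237). *Psma7* read 9.07, 7.88 and 8.02 on the LIRKO arrays, against 9.13, 9.01 and 9.12 on the Flox arrays, a difference of -0.76 (SE 0.305, adjusted p = 0.237). LIRKO 1 overlapped with Flox for all 3 of these, and the other two LIRKO arrays lay below. The other alpha subunits, *Psma1*, *Psma3*, *Psma5* and *Psma6*, ranged from -1.05 to -0.27, with LIRKO 1 above all Flox arrays for each. Many adjusted p-values are 0.237 because the Benjamini-Hochberg adjustment gives neighbouring p-values a common value.

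In the beta ring, the structural subunit *Psmb1* read 9.57, 8.17 and 7.98 on the LIRKO arrays, against 9.67, 9.63 and 9.75 on the Flox arrays, a difference of -1.11 (SE 0.397, adjusted p = 0.237), with no overlap, although LIRKO 1 was only -0.12 from the Flox mean. *Psmb2* read 8.74, 7.52 and 7.96 on the LIRKO arrays, against 8.83, 8.92 and 8.72 on the Flox arrays, a difference of -0.75 (SE 0.295, adjusted p = 0.237). *Psmb3* was at -0.93 (-0.015 on LIRKO 1, -0.31 after cyclic loess) and *Psmb4* at -0.89 (0.020 on LIRKO 1, -0.34 after cyclic loess). LIRKO 2 and LIRKO 3 lay below all Flox arrays for these 4 subunits. *Psmb5*, which carries the chymotrypsin-like site, read 9.30, 7.57 and 7.64 on the LIRKO arrays, against 9.30, 8.79 and 9.29 on the Flox arrays, a difference of -0.96 (SE 0.463, adjusted p = 0.258). *Psmb6*, with the caspase-like site, read 9.44, 8.67 and 8.79 on the LIRKO arrays, against 9.66, 9.64 and 9.51 on the Flox arrays, a difference of -0.64 (SE 0.212, adjusted p = 0.237). *Psmb7*, with the trypsin-like site, read 9.27, 7.90 and 7.93 on the LIRKO arrays, against 9.22, 9.03 and 9.22 on the Flox arrays, a difference of -0.79 (SE 0.364, adjusted p = 0.251). After cyclic loess these 3 catalytic subunits were at -0.67, -0.19 and -0.47. LIRKO 1 lay at the top of the Flox arrays for *Psmb5*, just above them for *Psmb7* and below them for *Psmb6*.

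The immunoproteasome genes split on LIRKO 1. *Psmb8* (102791_at; chromosome 17, 34198195 to 34201454) read 7.52, 6.63 and 6.38 on LIRKO 1, 2 and 3, against 8.03, 7.72 and 7.93 on Flox 1, 2 and 3. Its difference was -1.06 (SE 0.291, adjusted p = 0.237), a signal of 0.481 times that in Flox, and -0.38 on LIRKO 1. *Psmb9* (93085_at; chromosome 17, 34182030 to 34187330) read 7.52, 7.59 and 7.07 on LIRKO 1, 2 and 3, against 7.94, 8.03 and 8.18 on Flox 1, 2 and 3. Both groups were apart for these 2 genes on every array, and *Psmb9* was the member with the lowest p on LIRKO 1 alone. The difference of *Psmb9* was -0.66 (SE 0.169, adjusted p = 0.237), and -0.53 on LIRKO 1, -0.46 on LIRKO 2 and -0.98 on LIRKO 3. With LIRKO 1 as the only LIRKO array, limma gave an adjusted p of 0.162 for *Psmb9* and 0.427 for *Psmb8*. After cyclic loess the differences were -0.999 for *Psmb8* and -0.55 for *Psmb9* (adjusted p = 0.204 and 0.212).

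*Psmb10* read 8.98, 7.84 and 7.87 on the LIRKO arrays, against 8.79, 8.94 and 8.71 on the Flox arrays, a difference of -0.58 (SE 0.309, adjusted p = 0.283). *Psme1*, which encodes a subunit of the activator that opens the core, read 9.41, 8.13 and 8.09 on the LIRKO arrays, against 9.18, 9.09 and 9.16 on the Flox arrays, a difference of -0.60 (SE 0.346, adjusted p = 0.312). LIRKO 1 lay above all Flox arrays for both, by 0.17 and 0.27 over the Flox mean, whereas LIRKO 2 and LIRKO 3 lay below. After cyclic loess they were at -0.32 and -0.26. The probe set 100588_at, annotated to *Psme2* and *Psme2b*, read 7.78, 7.16 and 7.10 on the LIRKO arrays, against 7.93, 7.93 and 7.83 on the Flox arrays, a difference of -0.55 (SE 0.195, adjusted p = 0.237). The dimmer 161938_r_at of the same pair of genes was at 0.035, so *Psme2* could not be read with certainty.

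**Figure D3:**
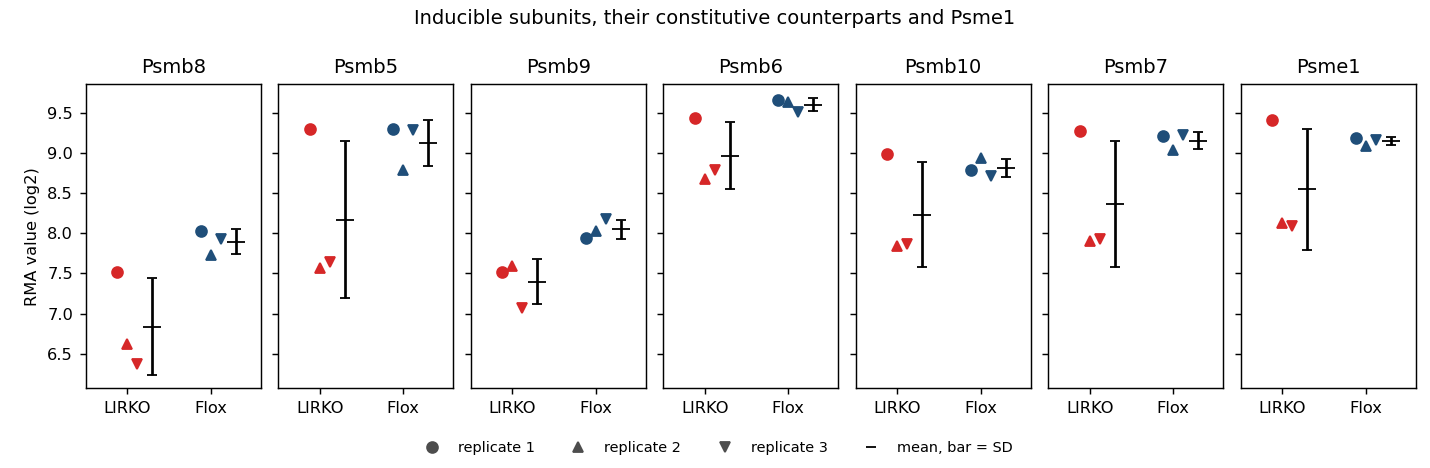
RMA values (log2, vertical) of the inducible subunits, each beside the constitutive subunit it replaces, and of *Psme1*. Symbols are arrays by replicate number, LIRKO left of Flox, with the mean and SD of 3 arrays. The 3 LIRKO arrays lie below the 3 Flox arrays for *Psmb8*, *Psmb9* and *Psmb6*, and LIRKO 1 lies at or above Flox for the others.

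A difference between an inducible subunit and its constitutive counterpart on the same array is free of a shift common to the whole array, though not of a shift that depends on level. For *Psmb8* minus *Psmb5*, taken relative to the Flox mean, LIRKO 1, 2 and 3 were at -0.55, 0.29 and -0.028, against -0.039, 0.16 and -0.12 for Flox 1, 2 and 3. For *Psmb9* minus *Psmb6*, the LIRKO arrays were at -0.37, 0.47 and -0.16, against -0.16, -0.060 and 0.22 for the Flox arrays. For *Psmb10* minus *Psmb7*, the LIRKO arrays were at 0.051, 0.28 and 0.29, against -0.082, 0.25 and -0.17 for the Flox arrays. The groups overlapped for all 3 pairs. The changes in LIRKO were -0.097 ± 0.426, -0.020 ± 0.436 and 0.21 ± 0.135 (SD of the LIRKO arrays, n = 3), with p = 0.9, 1 and 0.2 by two-sided exact permutation tests, or 1, 1 and 0.6 after adjustment over the 3 pairs. After cyclic loess the changes were -0.33, -0.36 and 0.15 (exact permutation p = 0.2, 0.2 and 0.4), and after quantile normalization -0.22, -0.21 and 0.18 (exact permutation p = 0.3, 0.4 and 0.2). With all probe sets of a gene averaged, *Psmb8* minus *Psmb5* was -0.76 (exact permutation p = 0.1). With 3 arrays against 3 the smallest p possible is 0.1. The size of the first 2 changes thus depended on the scaling.

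The cap genes lay on both sides of 0. Of the 20 genes 15 were below 0 (14 after quantile normalization, 12 after cyclic loess) and 5 above, with a median of -0.53. At an unadjusted limma p under 0.05, 7 were lower, against 13.5% of all probe sets and 30.6% of those in the 3 brightest groups. *Psmc4*, *Psmc5*, *Psmd2*, *Psmd10* and *Psmd12* lie outside these 3 groups. LIRKO 1 had a median of -0.052, LIRKO 2 of -0.82 and LIRKO 3 of -0.65. Among the ATPases, *Psmc1* read 8.25, 7.12 and 6.84 on the LIRKO arrays, against 8.37, 8.17 and 8.43 on the Flox arrays, a difference of -0.92 (SE 0.351, adjusted p = 0.237). *Psmc2* read 9.20, 7.56 and 7.92 on the LIRKO arrays, against 9.52, 8.99 and 9.41 on the Flox arrays, a difference of -1.08 (SE 0.412, adjusted p = 0.237). *Psmc3* read 8.74, 7.50 and 7.36 on the LIRKO arrays, against 8.72, 8.71 and 8.64 on the Flox arrays, a difference of -0.82 (SE 0.35, adjusted p = 0.239). LIRKO 1 was at -0.071, -0.11 and 0.048 from the Flox mean for these 3 ATPases. *Psmc6* was at -0.66 (-0.19 after cyclic loess), and *Psmc4* and *Psmc5*, which had dimmer probe sets, were at 0.060 and -0.012. On LIRKO 1 these were at 0.12, -0.18 and 0.035, each with the other sign.

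Among the other cap genes, *Psmd8*, a subunit of the lid, read 8.23, 7.51 and 7.50 on the LIRKO arrays, against 8.48, 8.39 and 8.41 on the Flox arrays, a difference of -0.68 (SE 0.213, adjusted p = 0.237), without overlap. *Psmd10*, an assembly chaperone of the cap also known as gankyrin, read 5.99, 5.50 and 5.42 on the LIRKO arrays, against 6.09, 6.30 and 6.13 on the Flox arrays, a difference of -0.54 (SE 0.176, adjusted p = 0.237), again without overlap. *Psmd13*, another lid subunit, read 7.52, 6.39 and 6.68 on the LIRKO arrays, against 7.99, 7.50 and 7.54 on the Flox arrays, a difference of -0.81 (SE 0.303, adjusted p = 0.237), and LIRKO 1 lay within the Flox range. The non-ATPase genes ranged from -0.81 for *Psmd13* to 0.26 for *Psmd9*. The deubiquitinase *Psmd14* was at -0.68, and the ubiquitin receptor *Psmd4* was also at -0.68 (0.0043 and -0.034 on LIRKO 1). *Psmd4* was at -0.22 after cyclic loess. Above 0 were *Psmd2*, *Psmd5*, *Psmd9* and *Psmd12*, at 0.22, 0.21, 0.26 and 0.10. On LIRKO 1, *Psmd2*, *Psmd5* and *Psmd12* were at -0.22, -0.13 and -0.056, below all Flox arrays for *Psmd2* and *Psmd5*. The positive means of *Psmd2* and *Psmd5* thus come from LIRKO 2 and LIRKO 3. *Psmd12* was at -0.051 on LIRKO 2 and 0.42 on LIRKO 3, so its positive mean comes from LIRKO 3. Of these genes, *Psmd5* and *Psmd9* encode chaperones of cap assembly and *Psmd2* and *Psmd12* encode subunits. *Psmd9* read 8.74, 8.81 and 8.90 on the LIRKO arrays, against 8.49, 8.65 and 8.53 on the Flox arrays, a difference of 0.26 (SE 0.114, adjusted p = 0.243).

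Of the further activators, *Psme3*, which forms a nuclear activator, read 7.72, 7.05 and 7.11 on the LIRKO arrays, against 7.83, 7.97 and 7.93 on the Flox arrays, a difference of -0.62 (SE 0.194, adjusted p = 0.237), without overlap. *Psme4*, which encodes a large single-chain activator, read 8.76, 7.67 and 7.89 on the LIRKO arrays, against 8.96, 8.56 and 8.79 on the Flox arrays, a difference of -0.67 (SE 0.287, adjusted p = 0.24). The assembly chaperones of the core lay on both sides of 0. *Psmg1* read 7.82, 7.19 and 6.98 on the LIRKO arrays, against 8.11, 7.94 and 8.07 on the Flox arrays, a difference of -0.71 (SE 0.222, adjusted p = 0.237). Its partner *Psmg2* read 5.78, 4.86 and 5.22 on the LIRKO arrays, against 6.17, 5.58 and 6.03 on the Flox arrays, a difference of -0.63 (SE 0.265, adjusted p = 0.238). *Psmg1* and *Psmg2* encode a heterodimer that guides the alpha ring, as do *Psmg3* and *Psmg4*. *Psmg3* read 8.55, 9.13 and 9.10 on the LIRKO arrays, against 8.33, 8.69 and 8.50 on the Flox arrays, a difference of 0.42 (SE 0.192, adjusted p = 0.25). The other probe set of *Psmg3*, 94543_at, was at 0.094, and *Psmg4* was at 0.24. For *Psmg3* and *Psmg4* LIRKO 1 lay within the Flox range.

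Neither gene that only carries a subunit's name encodes a subunit. *Psme3ip1*, whose product binds *Psme3*, read 7.60, 7.28 and 7.41 on the LIRKO arrays, against 7.85, 7.83 and 7.86 on the Flox arrays, a difference of -0.42 (SE 0.125, adjusted p = 0.237), without overlap and with -0.24 on LIRKO 1. *Psmc3ip*, known for its role in meiotic recombination, read 4.42, 5.13 and 4.88 on the LIRKO arrays, against 4.60, 4.76 and 4.66 on the Flox arrays, a difference of 0.13 (SE 0.191, adjusted p = 0.662). LIRKO 1 was below all Flox arrays for it and LIRKO 2 and LIRKO 3 were above.

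The probe sets of 5 of the 8 genes read by more than 1 did not point in the same direction. For *Psmb5*, the brighter 101558_s_at was at -0.96 and 160559_at at 0.37, where it read 8.06, 8.34 and 8.70 on the LIRKO arrays, against 7.90, 8.11 and 7.997 on the Flox arrays. For *Psmd11*, a lid subunit, 94796_at read 9.93, 9.20 and 9.56 on the LIRKO arrays, against 9.96, 9.82 and 9.96 on the Flox arrays, a difference of -0.35. Its 160304_r_at read 7.65, 9.04 and 8.66 on the LIRKO arrays, against 7.67, 7.67 and 7.69 on the Flox arrays, a difference of 0.77, and 160305_at was at -0.57. LIRKO 1 thus matched Flox on the first 2 probe sets of *Psmd11* while LIRKO 2 and LIRKO 3 lay below it on the first and above it on the second. For *Psmb1*, 98113_at was at -1.11, 160875_at at -0.10 and 161923_at at 0.65. For *Psmb4*, 98557_f_at read 10.32, 8.79 and 9.11 on the LIRKO arrays, against 10.30, 10.25 and 10.34 on the Flox arrays, a difference of -0.89, and 98556_at and 98558_r_at were at 0.043 and 0.12. For *Psme1*, 101510_at was at -0.60 and 161293_r_at at 0.32. The probe sets with positive values were dimmer than the brightest probe set of their gene in each case. The probe sets at which *Psma3*, *Psmb4*, *Psmb7*, *Psmc3* and *Psmd12* were read have names ending in _f_at. That of *Psmb5* ends in _s_at, and those of *Psmd9*, *Psmg3* and the marker *Col1a2* below end in _r_at. How specific these probe sets are for their genes was not tested.

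**Figure D4:**
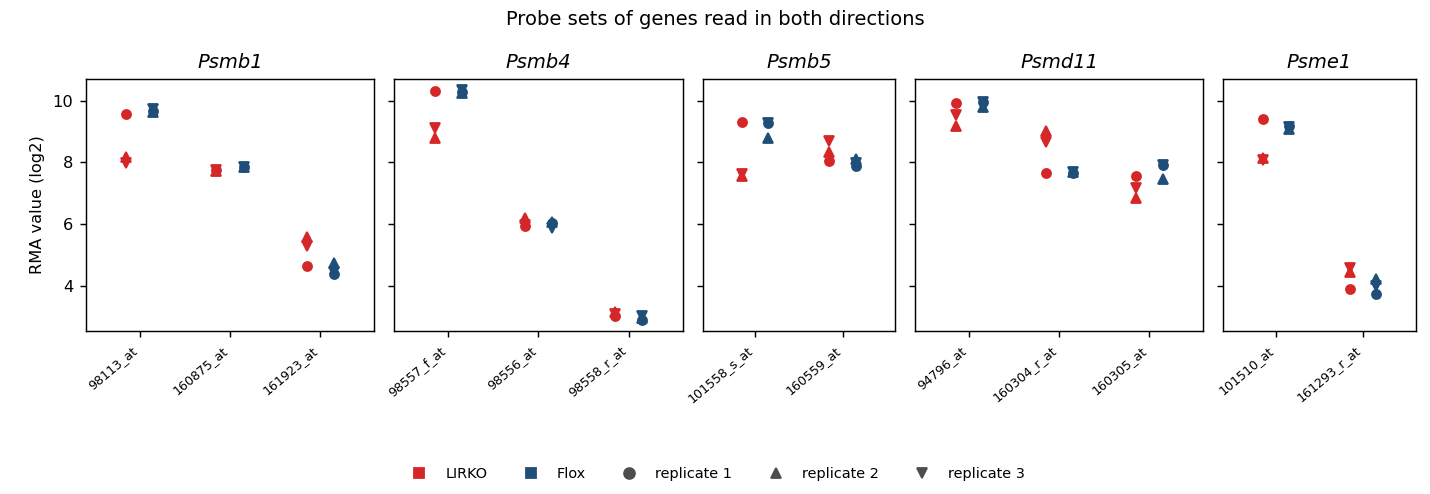
RMA values (log2, vertical) of every probe set (horizontal) of the 5 genes whose probe sets differ in the sign of the difference, LIRKO left of Flox, with symbols by replicate number. For *Psmb1* and *Psme1*, LIRKO 2 and LIRKO 3 lie below Flox on the brightest probe set and above Flox on the dimmest.

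The genes around the proteasome showed no call either. Of 25 listed genes for ubiquitin and its conjugation 14 were measured, and 12 were below 0 with a median of -0.35 (0.012 on LIRKO 1). The ubiquitin-conjugating enzyme *Ube2d2a* was at -0.49 (SE 0.166, adjusted p = 0.237), *Ube2a* at -0.39 (SE 0.132, adjusted p = 0.237) and *Cdc34* at -0.77 (SE 0.292, adjusted p = 0.237). Of 27 listed partners of the proteasome 17 were measured, and 15 were below 0 with a median of -0.29 (0.018 on LIRKO 1). *Pomp*, the maturation chaperone of the core, read 9.18, 8.43 and 8.29 on the LIRKO arrays, against 9.37, 9.31 and 9.32 on the Flox arrays, a difference of -0.70 (SE 0.234, adjusted p = 0.237). *Vcp*, the segregase that extracts ubiquitinated proteins, was at -0.76 (SE 0.266, adjusted p = 0.237). *Pomp* and *Vcp* were at -0.15 and -0.16 on LIRKO 1 and at -0.32 and -0.22 after cyclic loess. *Akirin2*, which brings proteasomes into the nucleus, was at 0.34 (SE 0.118, adjusted p = 0.237) and had all LIRKO arrays above all Flox arrays. At an unadjusted limma p under 0.05, 4 of the 14 conjugation genes and 3 of the 17 partners were lower, and only *Akirin2* among them was higher. The share lower was 13.5% for all probe sets and 30.6% for those in the 3 brightest groups. Many genes of both lists lie outside these 3 groups, so the second share is not one of like level. In both lists LIRKO 1 was near Flox in median, as it was for the core.

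Genes of MHC class I antigen processing, the destination of immunoproteasome products, were measured for 10 of 15 listed, with 8 below 0 and a median of -0.73 (-0.17 on LIRKO 1, -0.26 after cyclic loess). At an unadjusted limma p under 0.05, 7 of 10 were lower, against 13.5% of all probe sets and 30.6% of those in the 3 brightest groups. *Tap1*, *Tap2* and *Calr* lie outside these 3 groups. *Tap1* (103035_at), which shares its upstream region with *Psmb9* as printed above, read 6.93, 6.62 and 6.47 on the LIRKO arrays, against 7.21, 7.28 and 7.57 on the Flox arrays, a difference of -0.68 (SE 0.167, adjusted p = 0.237). Like *Psmb8* and *Psmb9*, it was below Flox on every LIRKO array, and at -0.42 on LIRKO 1. This separation was not particular to *Tap1*. It held for 5 of the 10 genes (also *H2-Q10*, *H2-K1*, *H2-D1* and *Tapbp*). The share was 14.9% for all probe sets and 27.4% for those in the 3 brightest groups. The class I heavy chain genes *H2-Q10* and *H2-K1* were at -1.30 (SE 0.368, adjusted p = 0.237) and -1.09 (SE 0.341, adjusted p = 0.237), with LIRKO 1 at -0.41 and -0.24. Both lie in the brightest level group and were at -0.36 and -0.18 after cyclic loess, whereas *Tap1* was at -0.66. *H2-Q10* and *H2-K1* are members of a family of near-identical genes whose probes can cross-hybridize.

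Of 29 listed genes of the interferon response 25 were measured, with 18 below 0, 7 above and a median of -0.17 (-0.056 on LIRKO 1). No gene of the list passed the test in the 3 LIRKO arrays. *Usp18*, which restrains interferon signalling, read 7.09, 6.83 and 6.54 on the LIRKO arrays, against 6.11, 5.87 and 6.002 on the Flox arrays, a difference of 0.82 (SE 0.168, adjusted p = 0.237). It was the 1 gene of these lists called with LIRKO 1 as the only LIRKO array, at 1.10 (adjusted p = 0.00905 by limma). The GTPases *Irgm1* and *Ifi47* were at -0.56 (SE 0.122, adjusted p = 0.237) and -0.75 (SE 0.227, adjusted p = 0.237), with LIRKO 1 at -0.47 and -0.23. These 2 genes were below Flox on every LIRKO array, a separation that 8 of the 25 genes showed, against 14.9% of all probe sets. At an unadjusted limma p under 0.05, 6 of the 25 were lower and 1 was higher, against 13.5% and 7.43% of all probe sets.

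Markers of other liver cells were set beside the immunoproteasome genes, since immune cells carry much of this form. The summed signal of 10 measured of 13 Kupffer cell and macrophage markers, on the linear scale, was 3320, 1740 and 2460 on LIRKO 1, 2 and 3, against 1890, 3030 and 2840 on Flox 1, 2 and 3. It was highest on LIRKO 1, where *Psmb8* and *Psmb9* were below all Flox arrays and *Psmb10* and *Psme1* above them. A sum is carried by the brightest markers. Of the 10 markers, 0 were below the Flox mean on LIRKO 1, 8 on LIRKO 2 and 6 on LIRKO 3. In the mean of the LIRKO arrays, 6 were below 0 and 4 above. For 12 of 15 lymphocyte markers the sum was 1010, 1250 and 1250 on LIRKO 1, 2 and 3, against 959 to 988 in Flox. Their median Flox level was 5.15, and their median differences were 0.32 on LIRKO 2 and 0.26 on LIRKO 3. All probe sets of level group 3, which holds that level, were at 0.18 and 0.12 in median. The markers spread over level groups 1 to 8, and the part of the level shift in their sum was not tested. For 9 of 10 hepatocyte markers the sum was 62800, 41000 and 42300 in LIRKO, against 60500 to 63300 in Flox. It was lower on LIRKO 2 and LIRKO 3, as the core subunits were. After cyclic loess the median difference of the hepatocyte markers was 0.096 (3 of 9 below 0), against -0.46 for the core. The hepatocyte markers were brighter than the core, with a median Flox level of 11.90, against 9.61. These medians are therefore not at like level, and nothing is concluded from their difference. For 6 of 7 stellate cell and fibroblast markers the sum was 1050, 2010 and 1780 on LIRKO 1, 2 and 3. In Flox it was 1070 to 1260. The sum was higher on the 2 LIRKO arrays on which most members were lower, largely through *Col1a2*. This gene read 8.36, 10.19 and 9.96 on the LIRKO arrays, against 8.07, 8.35 and 8.11 on the Flox arrays. *Col3a1* of the same list was below Flox on every LIRKO array, with a difference of -0.90. Of the 6 markers 5 were above 0 and 1 below, with a median difference of 0.21. RMA gives no value of 0, and the lowest reading was 5.13 among the macrophage markers and 3.70 among the lymphocyte markers. The part of these cells in the results was not tested.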

How the data were processed

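Liver RNA of 3 LIRKO and 3 Flox pools was labelled for Affymetrix MG-U74A-v2 arrays. The authors used the R packages affy and limma and corrected background and normalized by robust multichip averaging (RMA), and they deposited a log2 value per probe set and array, with no p-values or fold changes. It is not stated whether all 6 arrays were normalized in 1 run. Values were used as deposited. After 66 array controls were left out, 12422 probe sets were tested with limma 3.58.1 (lmFit and eBayes) in R 4.3.3, with Benjamini-Hochberg adjustment over all of them and a threshold of 0.05. These p-values measure the spread between pools only.

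Gene symbols came from the platform annotation (10833 probe sets with 1 symbol, 396 with several, 1193 with none), and all 46 members were found in the RefSeq gene table by Entrez ID. Named with values on every array were the immunoproteasome genes, *Psmb5*, *Psmb6*, *Psmb7*, up to 3 genes of each other group with the smallest p, and genes whose probe sets differ in sign. The pathway lists name up to 3 genes with the smallest p. The members and all lists were chosen with earlier results of these data known. Paired subunits were compared by two-sided exact permutation tests over arrays. Promoter sequences are from RefSeq (GRCm38.p6), and motifs were searched on both strands (a further motif is not reported here) with Python 3.11.15. Alternatives were other normalizations, removal of dim probe sets, a second variance model, the methods' t-test, a replicate block, averaged probe sets per gene, LIRKO 1 as the only LIRKO array and leaving out each array. The limma step was tested on simulated data with known changes, in which both groups had the spread of the Flox arrays. Most members had a larger spread in LIRKO, such as *Psma5* with an SD of 0.989, against 0.0193 in Flox. The simulation therefore does not measure the error or power of limma under that spread. Replicate numbers were not taken to pair arrays. The number of arrays limits the precision.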

Additional observations from a re-analysis of the deposited data

How the results depend on the processing

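No member passed limma in the main test (0 of 46) nor after quantile normalization, cyclic loess, median centring, the dim filter (mean above the 25th percentile), a second variance model, averaged probe sets per gene or LIRKO 1 as the only LIRKO array. The methods' t-test called 3 members unadjusted (*Psmd9*, *Psmb9* and *Psme3ip1*; against 5.86% of all probe sets) and 0 after Benjamini-Hochberg. Leaving out arrays in turn gave 0 to 41 members, 41 without LIRKO 1 and 0 without any other array. With LIRKO 1 as the only LIRKO array, the medians were 0.0024 for the core, -0.052 for the cap and -0.10 for the immunoproteasome, and 21 of 46 members changed sign, among those named with values on every array *Psme1* (0.27), *Psmb10* (0.17), *Psmb5* (0.17), *Psmb7* (0.12), *Psmc3* (0.048), *Psmb4* (0.020), *Psmd11* (0.019) and *Psmc3ip* (-0.25). *Psmd11* also changed sign after quantile normalization (0.057) and cyclic loess (0.18). Leaving out arrays in turn gave -0.024 to 0.33 for *Psmc3ip*, -0.29 to 0.13 for *Psmb8* minus *Psmb5* and -0.26 to 0.15 for *Psmb9* minus *Psmb6*. Without LIRKO 1 the medians were -1.29 for the core, -0.74 for the cap and -0.99 for the immunoproteasome. The causes were not tested.

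With the replicate block 0 members passed, and 11 of all probe sets passed, against 16 without it. Deviations of LIRKO and Flox arrays with the same number correlated at 0.32, 0.40 and 0.092. Those with unlike numbers ranged from -0.37 to 0.17, below the values of 0.32 and 0.40. The numbers were not taken as a pairing because the labels do not say that they pair arrays. Signal over background is not given by RMA values, so the floor of dim probe sets is unknown.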
